A study of Mus musculus with 6 samples.

Results

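The chaperonin CCT, also called TRiC, is built from 8 different subunits encoded by Tcp1, Cct2, Cct3, Cct4, Cct5, Cct6a, Cct7 and Cct8. These 8 genes were chosen by membership of the complex, with earlier results of these data known. Each had a value in all 6 libraries of the study, among 25654 gene identifiers with values. All 8 were among the 10511 genes that passed a filter on low values, an average of 1 CPM (reads per 1000000 reads) or more over the 6 libraries. RNA was measured in CD8 T cells from the spleens of female C57BL/6 mice of wild-type genotype, either 6 weeks old (young) or around 65 weeks old (aged). Cells of both ages were activated for 2 days by plate-bound anti-TCR-β (3 µg/ml) and anti-CD28 (1 µg/ml), which mimic antigen and costimulation, with 10 ng/ml interleukin 2. They then grew in interleukin 2 for 5 more days, so the levels below are those of expanded T cells after 7 days and not of cells fresh from the spleen. Each age group had 3 libraries. The labels name them biological replicates, and whether a library stands for 1 mouse is not stated. P-values here therefore measure the spread between these libraries, which may be technical.

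CCT is a barrel of stacked rings in the cytosol, and every ring holds 1 copy of each of the 8 subunits in a fixed order. It takes an unfolded protein into its cavity, closes a built-in lid as it binds and splits ATP, and releases the folded product. Actin and tubulin are its classic clients, along with many proteins with WD40 repeats, such as the mitotic activator Cdc20. Prefoldin hands nascent chains to it, and phosducin-like proteins regulate it.

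The levels are counts of transcript 3' ends, which do not grow with transcript length. The libraries held 1952552 to 2785915 reads, so that 1 read was worth 0.359 to 0.512 CPM. Each subunit was supported by at least 302 reads in every library. Genes that define T cells were present, with a summed level of the 8 T cell markers of 2599 to 2715 CPM in young and 2055 to 2219 CPM in aged libraries. Of these 8 markers, 5 were called lower and none higher in aged cells by the limma test below, against 12.5% and 16.2% of all genes tested. Of 7 B cell markers, 5 were at 0 in all libraries, Ms4a1, Cd79a and Pax5 among them, and the list summed to 2.51 to 9.99 CPM in young and at most 1.53 CPM in aged libraries. CD4 T cell markers summed to 0.718 to 2.69 CPM and 1.92 to 4.10 CPM. The 8 myeloid markers summed to 196 to 198 CPM and 186 to 218 CPM, with Lyz2 and Adgre1 at 0. Most of that sum was Cst3 (means of 129 and 112 CPM, not called) and Fcer1g (50.1 and 71.9 CPM, called higher). Cd68 and Itgam were called lower. The 6 NK cell markers summed to 163 to 193 CPM and 207 to 261 CPM, with Klra8 at 0. Most of that sum was Eomes (152 and 196 CPM). Eomes and Klre1 (3.12 and 13.1 CPM) were called higher and no NK cell marker lower. Klrb1c (22.8 and 15.7 CPM) and Tyrobp (3.99 and 2.70 CPM) had lower means in aged cells and were not called. The median log2 fold change of the 4 NK cell markers tested was -0.02. Erythroid markers summed to 10.0 to 22.3 CPM in young and 1.15 to 4.24 CPM in aged libraries. The part of these lists in the results below was not tested. In RNA from bulk cultures, fewer cells of a type and less RNA per cell cannot be told apart.

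The promoters of the 2 subunits with the largest age differences, Cct6a and Cct3, of the most abundant subunit, Cct7, and of the subunit with the smallest difference, Cct2, are shown so that their short sequence elements can be compared. They are RefSeq windows of build GRCm38.p6 from 250 bases before to 50 bases after a gene's start, printed along the gene's strand. The Cct6a window is chr5:129787106-129787405 (+), that of Cct3 is chr3:88296885-88297184 (+), that of Cct7 is chr6:85451255-85451554 (+) and that of Cct2 is chr10:117063803-117064102 (-). Capitals mark matches, on either strand, to the GC box (GGGCGG), the CCAAT box (CCAAT) and an ETS-type element (CCGGAAG), the elements searched that occur in these windows.
Cct6a: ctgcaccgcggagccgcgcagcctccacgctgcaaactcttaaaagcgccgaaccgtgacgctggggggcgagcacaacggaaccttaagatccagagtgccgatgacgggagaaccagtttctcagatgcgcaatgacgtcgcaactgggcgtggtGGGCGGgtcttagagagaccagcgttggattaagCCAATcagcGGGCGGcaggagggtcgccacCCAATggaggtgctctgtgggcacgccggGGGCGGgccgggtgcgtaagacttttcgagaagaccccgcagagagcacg
Cct3: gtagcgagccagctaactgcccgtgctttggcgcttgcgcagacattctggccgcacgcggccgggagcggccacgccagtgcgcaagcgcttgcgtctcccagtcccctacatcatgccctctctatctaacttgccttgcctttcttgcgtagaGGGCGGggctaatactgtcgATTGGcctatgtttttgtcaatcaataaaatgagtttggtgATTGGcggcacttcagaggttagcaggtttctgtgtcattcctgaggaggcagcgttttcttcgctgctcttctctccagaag
Cct7: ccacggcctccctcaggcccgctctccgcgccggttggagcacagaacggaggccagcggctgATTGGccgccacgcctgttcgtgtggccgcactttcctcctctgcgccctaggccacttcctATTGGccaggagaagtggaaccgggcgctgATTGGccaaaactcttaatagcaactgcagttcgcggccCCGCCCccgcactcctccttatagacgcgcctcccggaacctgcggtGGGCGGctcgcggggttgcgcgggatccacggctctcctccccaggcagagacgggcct
Cct2: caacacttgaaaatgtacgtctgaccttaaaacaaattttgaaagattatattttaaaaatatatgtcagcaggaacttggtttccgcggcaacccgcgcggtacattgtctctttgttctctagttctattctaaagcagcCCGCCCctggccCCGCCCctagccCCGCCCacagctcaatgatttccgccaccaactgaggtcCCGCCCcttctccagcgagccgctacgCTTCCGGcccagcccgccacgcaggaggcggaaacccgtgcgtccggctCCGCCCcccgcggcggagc

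RefSeq windows were found for 7 of the 8 subunits, 9 windows in all. A GC box, the element bound by SP family factors, occurred in 8 of the 9 windows and in at least 1 window of each of the 7 genes, against 35.7% of all 32851 promoter windows of the same length. The GC content of the 9 windows ran from 47.3% to 67.7%, against a median of 52.7% over all windows, with only a Cct5 window below that median. The part of GC content in the GC box matches was not tested. The CCAAT box, the element of the factor NF-Y, occurred in 4 of the 9 windows (Tcp1, Cct3, Cct6a and Cct7), against 37.4% of all windows. The ETS-type element was found in 3 of the 9 windows (Tcp1, 1 of Cct2, and Cct8), against 8.86% of all windows. The heat shock element searched, GAANNTTC, was present in 1 of the 9 windows, the other RefSeq window of Cct2, against 7.86% of all windows. Neither the E-box CACGTG, the element of MYC and MAX, nor TATAAA was found in any of the 9 windows, against 7.15% and 13.6% of all windows. The Cct7 window printed above carried 3 CCAAT boxes and 2 GC boxes, the Cct6a window 2 and 3, and the Cct2 window no CCAAT box and 5 GC boxes. A match is a string of letters, and its absence says only that these letters are not in the window.

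In aged cells 6 of the 8 subunit transcripts were higher than in young cells and none was lower. The 6 were Cct6a, Cct3, Cct7, Cct8, Tcp1 and Cct4, with 1.24- to 1.56-fold higher means. Cct2 and Cct5 did not pass the test, with means 1.05 and 1.10 times those of young cells. Of all 10511 genes tested, 16.2% were called higher in aged cells and 12.5% lower, by limma at a Benjamini-Hochberg adjusted p under 0.05. That balance turned with scaling between libraries, since TMM scaling gave 1432 higher and 1548 lower genes, against 1701 and 1313 here, while the same count of 6 subunits was called higher. The median log2 fold change of the 8 subunits was 0.35, against 0.03 for all genes tested. All 8 fitted differences were above 0, as were 53.2% of those of all genes tested. The 3 aged values lay above the 3 young values for the same 6 subunits, and for 22.5% of all genes tested; they lay below for none of the subunits and for 18.3% of all genes. Log2 fold changes are aged minus young on log2(CPM + 1).

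**Figure D1:**
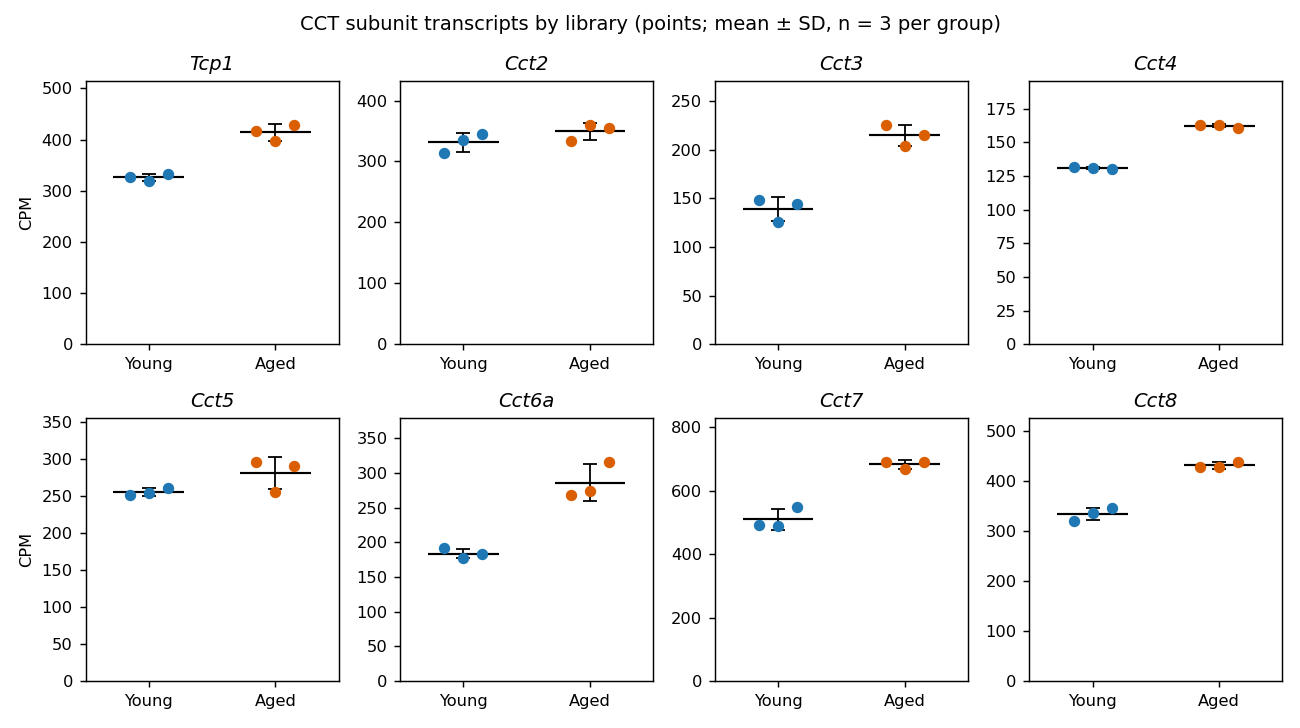
Levels of the 8 subunit transcripts in CPM (vertical axes, from 0, each on its own scale) in the 3 young and 3 aged libraries; points are libraries, bars are the mean ± SD. The aged points lie above the young points for all subunits except Cct2 and Cct5, whose groups overlap.

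Cct6a, the zeta subunit, had the largest difference in log2 terms. It measured 191, 177 and 183 CPM in the young libraries and 268, 273 and 316 CPM in the aged ones. The groups did not overlap, and Aged replicate 3 stood above the other aged libraries. The mean went from 184 ± 7.06 to 286 ± 26.5 CPM (SD, n = 3 each), a 1.56-fold difference. The log2 fold change was 0.63 ± 0.08 (SE, limma, adjusted p = 5.9e-06). Of all genes tested, 8.99% had a larger one. Its relative Cct6b, the version of the zeta subunit known from testis, was at 0 in all 6 libraries.

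Cct3, the gamma subunit, differed by nearly as much from a lower level. The young libraries held 148, 125 and 144 CPM and the aged libraries 225, 203 and 215 CPM. Young replicate 2 was the lowest of its group, and the groups did not overlap. The mean rose from 139 ± 12.2 to 215 ± 11.1 CPM (SD, n = 3 each), 1.54-fold, with a log2 fold change of 0.62 ± 0.08 (SE, limma, adjusted p = 1.5e-05).

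Cct7, the eta subunit, was the most abundant of the 8 in both groups. It measured 493, 488 and 548 CPM in young cells and 692, 667 and 691 CPM in aged cells. All aged libraries were above all young libraries, and Young replicate 3 was the highest young one. The mean went from 510 ± 33.1 to 683 ± 13.9 CPM (SD, n = 3 each), 1.34-fold higher. The log2 fold change was 0.42 ± 0.06 (SE, limma, adjusted p = 3.0e-05).

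Cct8, the theta subunit, and Tcp1, the alpha subunit that gave the complex its first name, had similar levels and similar differences. Cct8 was at 321, 337 and 346 CPM in young and at 428, 428 and 440 CPM in aged libraries. Tcp1 was at 327, 319 and 333 CPM in young and at 417, 396 and 429 CPM in aged libraries. For both genes the groups stood apart by more than the range within either group. Cct8 was 1.29-fold higher, with a log2 fold change of 0.37 ± 0.06 (SE, n = 3 each, limma, adjusted p = 0.00017). Tcp1 was 1.27-fold higher, at 0.34 ± 0.06 (SE, n = 3 each, limma, adjusted p = 0.0004).

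Cct4, the delta subunit, was the least abundant and had the most even libraries. It measured 131, 131 and 130 CPM in young and 163, 163 and 161 CPM in aged libraries. The groups did not overlap. The mean went from 131 ± 0.534 to 162 ± 1.12 CPM (SD, n = 3 each). The log2 fold change was 0.31 ± 0.08 (SE, limma, adjusted p = 0.00536), 1.24-fold. The spread between its libraries, a coefficient of variation of 0.41% in young and 0.69% in aged cells, was below the 5.5% and 5.3% that counting error alone gives at its read counts. With DESeq2 on the recovered reads Cct4 did not pass the test, with a log2 fold change of 0.26 and an adjusted p of 0.0747.

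The remaining pair, Cct2 and Cct5, overlapped between the groups. Cct2, the beta subunit, measured 314, 336 and 345 CPM in young and 334, 360 and 355 CPM in aged libraries. Aged replicate 1 lay inside the young range, and the other aged libraries lay above it. The log2 fold change was 0.08 ± 0.07 (SE, limma, adjusted p = 0.432), with a 95% interval from -0.06 to 0.22. Cct5, the epsilon subunit, measured 252, 253 and 261 CPM in young and 297, 256 and 291 CPM in aged libraries. Here Aged replicate 2 fell within the young range while the other aged libraries were above it. The log2 fold change was 0.13 ± 0.07 (SE, limma, adjusted p = 0.187), with a 95% interval from -0.02 to 0.29. Without Aged replicate 2 it was 0.20, with a limma adjusted p of 0.0622. The upper ends of both intervals lay below the fitted value of Cct4, but its own 95% interval, from 0.14 to 0.47, overlapped both.

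**Figure D2:**
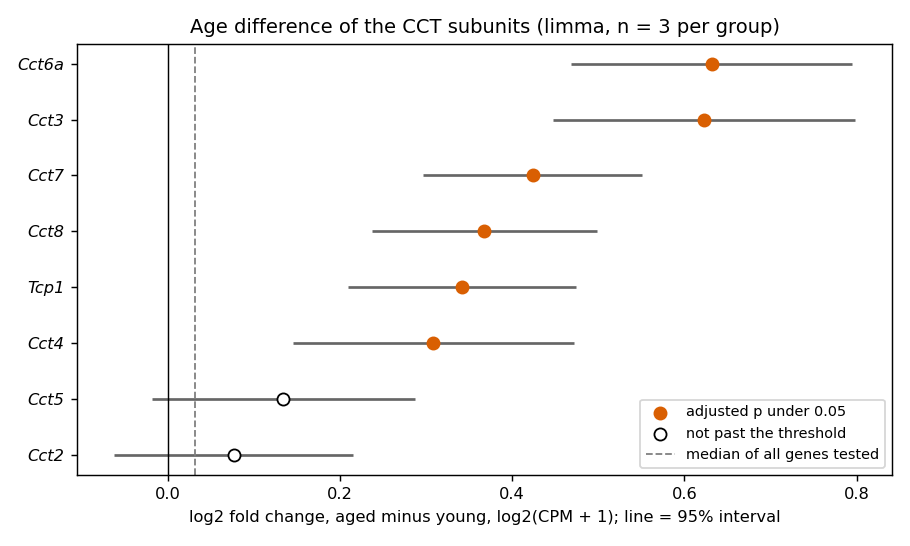
Log2 fold change of each subunit (horizontal axis, aged minus young on log2(CPM + 1)) with its 95% interval from limma, n = 3 per group; filled points have an adjusted p under 0.05 and the dashed line is the median of all genes tested. Cct6a and Cct3 lie farthest right at 0.63 and 0.62, and the intervals of Cct5 and Cct2 include 0.

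Summed over the 8 subunits, the young libraries held 2179, 2167 and 2290 CPM and the aged libraries 2824, 2747 and 2897 CPM. The lowest aged sum was above the highest young sum. The mean sum went from 2212 ± 67.8 to 2823 ± 75.2 CPM (SD, n = 3 each), a difference of 611 CPM or 1.28-fold. An exact permutation test over the libraries, two-sided, gave p = 0.1, the smallest that its 20 regroupings allow. The difference was 518 CPM with TMM scaling.

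The 8 transcripts were unequal in measured level although the complex holds equal numbers of each subunit. Whether the 3' ends of different genes are read equally well was not tested. Cct7 and Cct3 also have pseudogene copies of their 3' ends, described below, so their ranks carry that uncertainty. In young cells Cct7 led, followed by Cct8, Cct2 and Tcp1, whose ranges overlapped from each to the next. Cct5 and then Cct6a came below these without overlap, and Cct3 and Cct4 were lowest and overlapped each other. In aged cells Cct7 again led, followed by Cct8 and Tcp1 with overlapping ranges, then Cct2, then Cct6a and Cct5 with overlapping ranges, then Cct3 and last Cct4. Cct2 thus stood below Tcp1 without overlap in aged cells and overlapped it in young cells. The highest subunit mean was 3.90 times the lowest in young and 4.21 times in aged cells. With equal levels each subunit would hold 12.5% of the sum.

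For 4 subunits the shares of the sum did not overlap between the groups. No count over all genes stands beside this one, since the shares exist only within the complex. Cct6a went from 8.31% to 10.1% and Cct3 from 6.29% to 7.60% of the summed CCT reads, with every aged share above every young share. Cct2 went from 15.0% to 12.4% and Cct5 from 11.6% to 9.95%, with every aged share below every young share. The shares of Cct7 (23.0% and 24.2%), Cct8 (15.1% and 15.3%), Tcp1 (14.8% and 14.7%) and Cct4 (5.92% and 5.75%) overlapped between the groups. These shares come from ratios within a library and do not depend on how the libraries are scaled. They do carry the uncertainty in the levels of Cct7 and Cct3 from pseudogene copies. No test was made of them, since shares that sum to a whole cannot move independently. In CPM the means of Cct2 (332 and 350) and Cct5 (255 and 281) were not lower in aged cells. Their smaller shares thus restate the larger differences of other subunits and are not a separate result.

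**Figure D3:**
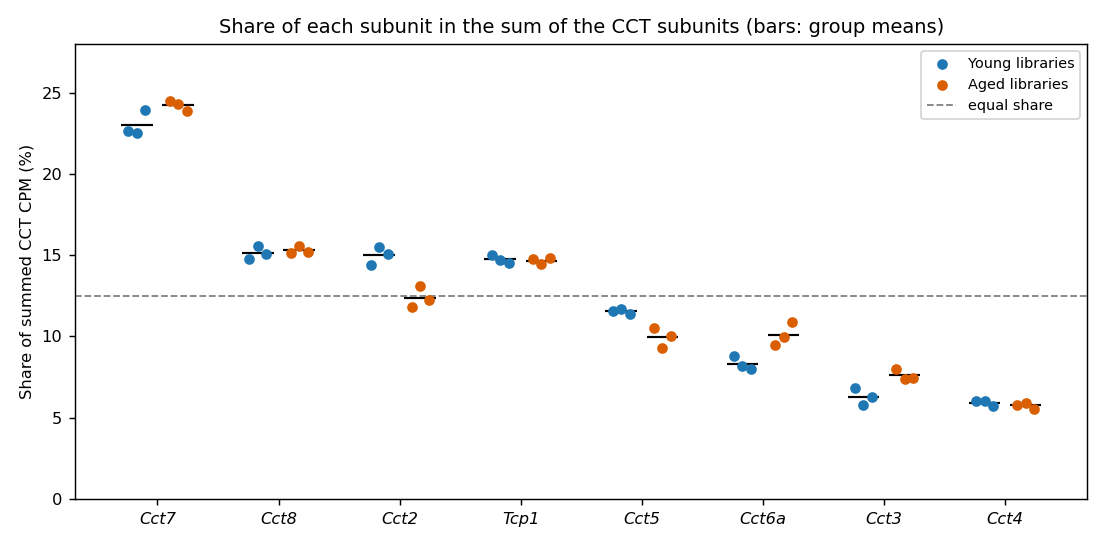
Share of each subunit in the summed CPM of the 8 subunits (vertical axis, percent) in the young and aged libraries; points are libraries, bars group means and the dashed line the equal share of 12.5%. Cct2 and Cct5 hold smaller shares and Cct6a and Cct3 larger shares in the aged libraries.

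Across the 6 libraries, the log2 level of 6 subunits followed the mean of the other 7 with a Pearson r of 0.95 to 0.99. For Cct5 r was 0.72 and for Cct2 0.56. These values describe 6 libraries that fall into 2 age groups, and no test was made of them. Within the young group, replicate 3 was the highest library for 5 of the 8 subunits and replicate 2 the lowest for 4. Within the aged group, replicate 2 was the lowest for 5.

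Of 7268 other genes averaging 10 CPM or more, Loxl2, a collagen cross-linking enzyme of the lysyl oxidase family, had the profile most like the mean of the 8 subunits, with r = 0.999 over the 6 libraries. It went from 10.1 to 20.4 CPM on only 22 to 50 reads per library, fewer than any subunit had, so its counting error is larger. Next came Hnrnph1, a splicing factor, from 114 to 158 CPM, and Cs, the citrate synthase of the tricarboxylic acid cycle, from 118 to 150 CPM. Lman1, a cargo receptor of the early secretory pathway, went from 112 to 202 CPM. The most opposite profile was that of Heca, with r = -0.998, which went from 67.5 to 31.6 CPM. These are descriptions over 6 libraries that share 2 age groups, with no test.

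Genes with which CCT works were compared next, from lists chosen for their role, with earlier results of these data known. Beside the counts of every list below, 16.2% of all genes tested were called higher and 12.5% lower. Prefoldin, the hexamer that delivers unfolded actin and tubulin to CCT, had 2 of its 6 subunits higher, 1 lower and 3 not past the test, with a median log2 fold change of 0.15. Pfdn2 went from 53.6 ± 1.44 to 79.5 ± 4.73 CPM (SD, n = 3 each; log2 fold change 0.56, limma adjusted p = 0.000495). Pfdn4 went from 52.2 to 76.2 CPM (0.54, limma adjusted p = 0.00228). Pfdn5 was lower, at 146 CPM against 179 CPM (log2 fold change -0.29, limma adjusted p = 0.00788), but it shares exon sequence with Myg1 and has a near-copy of its 3' end, so its reads may be split. Pfdn6 was at 70.3 and 80.1 CPM and was not called.

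None of the 3 tested phosducin-like co-chaperones passed the test, with a median of -0.14. Txndc9, which inhibits the ATPase of CCT and has a near-copy of its 3' end, was at 98.3 and 92.0 CPM in young and aged cells, Pdcl3 at 25.4 and 22.3 CPM and Pdcl, needed for assembly of G protein βγ dimers, at 20.8 and 19.2 CPM. The remaining one, Pdcl2, was at 0 in all libraries. Tubulin folding cofactors take tubulin on after CCT. Of the 7 genes in this list, which includes the related Tbcel and Arl2, only Tbcb passed. It went from 79.0 to 110 CPM (log2 fold change 0.48, limma adjusted p = 0.00125). The list median was -0.00, and the share called higher, 1 of 7, was close to the 16.2% of all genes. The other 6 genes were not called. Among them Tbcel was at 71.9 and 64.5 CPM, Tbcd at 12.3 and 15.6 CPM and Tbce at 4.05 and 3.53 CPM.

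The clients actin and tubulin had 8 of 13 tested genes higher and 2 lower, against 16.2% and 12.5% of all genes. Their median log2 fold change was 0.41. Tuba1b, an α-tubulin, went from 1200 ± 109 to 2174 ± 85.8 CPM (SD, n = 3 each), 1.81-fold (log2 fold change 0.86, limma adjusted p = 9.5e-09). Tuba1c went from 635 to 1135 CPM, Tuba4a from 331 to 568 CPM and the β-tubulin Tubb4b from 186 to 303 CPM, all 3 past the same test. Their log2 fold changes were above that of every CCT subunit, a difference that was not tested. The genes that follow were picked after their values were seen. Tubb5, the main β-tubulin of these cells, went from 1262 to 1678 CPM, and Tubb2b, a minor one, was lower, from 23.3 to 6.29 CPM. Actb, the most abundant client, went from 29406 to 32441 CPM (log2 fold change 0.14, limma adjusted p = 0.0129). This call was lost with TMM scaling (0.09, limma adjusted p = 0.222) and without Young replicate 1 (limma adjusted p = 0.0706). It was also lost with RLE scaling, upper-quartile scaling and no filter (limma adjusted p = 0.162, 0.178 and 0.103). Neither edgeR (adjusted p = 0.143) nor DESeq2 (adjusted p = 0.185) called Actb. Actg1 was lower, from 6533 to 5789 CPM (log2 fold change -0.18, limma adjusted p = 0.0112), and without Aged replicate 1 or 3 its adjusted p was 0.0639 or 0.0621. Both actin genes have near-copies of their 3' ends. Actg1 and Tuba1b share exon sequence with other gene models on the same strand. The split of reads among copies is thus uncertain.

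Of 16 other proteins known to fold on or bind CCT, 3 were higher, none lower and 13 not past the test, with a median of -0.02. The share called higher, 3 of 16, was close to the 16.2% of all genes. Plk1, a mitotic kinase, went from 92.2 to 167 CPM (log2 fold change 0.87, limma adjusted p = 3.0e-05), Cdc20 from 60.9 to 111 CPM and Ccne1, cyclin E, from 40.8 to 72.1 CPM. Mlst8, a WD40 subunit of the mTOR complexes, was at 13.2 and 8.86 CPM and was not called. Proliferation markers differed between the ages in the same direction as the CCT transcripts. All 7 were higher in aged cells, with a median of 1.00, and their summed level was 1484 to 1902 CPM in young and 2843 to 2880 CPM in aged libraries. Mki67, which marks cycling cells, went from 235 to 468 CPM. The part of proliferation in the CCT differences was not tested.

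**Figure D4:**
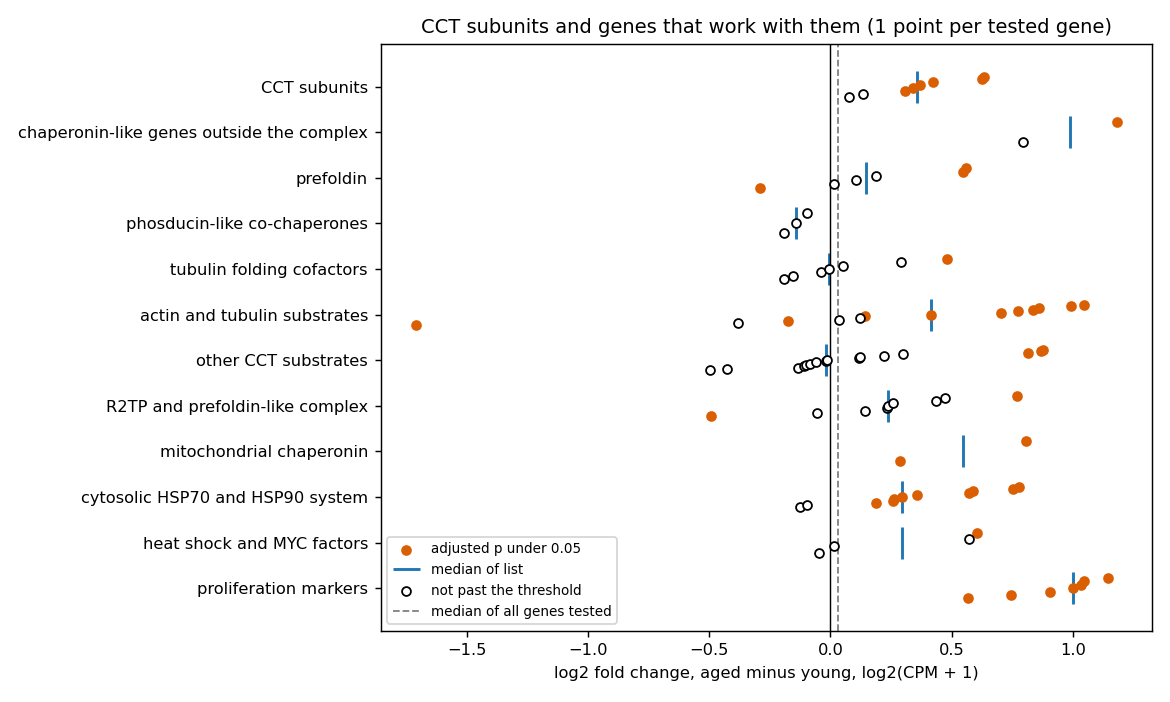
Log2 fold change (horizontal axis, aged minus young) of every tested gene of the CCT subunits and 11 companion lists; filled points have an adjusted p under 0.05, blue bars are list medians and the dashed line is the median of all genes tested. CCT subunits lie between 0.08 and 0.63, below most proliferation markers and with none left of 0.

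Other chaperones were read beside CCT. Hspd1, the mitochondrial chaperonin that resembles CCT in its ring design, went from 381 to 667 CPM, and its lid Hspe1 from 274 to 334 CPM, both past the limma test (log2 fold changes 0.81 and 0.28, adjusted p = 7e-07 and 0.00517). Both genes have near-copies of their 3' ends, so their reads may be mixed with those of copies. Their exons overlap on opposite strands, and whether the overlap reaches the 3' ends that the assay reads was not examined. The 11 tested genes of the cytosolic HSP70 and HSP90 system had a median of 0.30. Of them 9 were higher and none lower, against 16.2% and 12.5% of all genes. The count was 7 with TMM or upper-quartile scaling, edgeR or DESeq2, and also without Young replicate 2 or Aged replicate 3. Hsp90aa1, the inducible HSP90, went from 1612 to 2758 CPM, with near-copies of its 3' end in the genome. Chaperonin-like genes outside the complex were near the detection floor. Bbs12, which helps assemble the BBSome, went from 1.48 to 4.40 CPM, against a floor of 3 reads or 1.08 to 1.54 CPM per library. It was called by limma (adjusted p = 0.027) and not by DESeq2 (adjusted p = 0.154).

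In the R2TP and prefoldin-like complex, which assembles large protein machines, Ruvbl1 was the only gene of 9 called higher, from 52.7 to 90.2 CPM, and it has a near-copy of its 3' end. Pdrg1, named after its values were seen, was the only one called lower, from 58.2 to 41.3 CPM. Each count, 1 of 9, was close to the 16.2% called higher and 12.5% called lower of all genes. Of the 4 heat shock and MYC factors, only Myc was called, from 25.8 ± 6.35 to 39.6 ± 7.65 CPM (SD, n = 3 each; limma adjusted p = 0.0161), with overlapping groups. DESeq2 did not call it (adjusted p = 0.0773).

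Positions below are those of GENCODE M21 on GRCm38, and each gene's 3' end was examined because the assay reads it. Cct6a (chr5:129786998-129846371, +), Cct3 (chr3:88297116-88321767, +) and Cct7 (chr6:85451514-85468475, +) lay on different chromosomes, as did Cct8 (chr16:87483326-87495873, -) and Tcp1 (chr17:12915701-12925067, +). Cct4 lay at chr11:22990519-23003780 (+), Cct2 at chr10:117051001-117063814 (-) and Cct5 at chr15:31590800-31601804 (-). The 8 genes thus sat on 8 chromosomes. Tcp1 and Cct6a each host 2 small nucleolar RNA genes on their own strand, and the annotation classes the Cct6a gene as a processed transcript. The last 300 bases of the Cct3 transcript matched the pseudogenes Cct3-ps1 (94.9% over 297 bases) and Gm11516 (94.0% over 300 bases). Those of Cct7 matched Gm12180 (94.1% over 153 bases) and Gm5380 (92.5% over 295 bases). No row of the files holds any of these 4 pseudogenes, and reads that match a gene and its copy could have been dropped or assigned to either, so the levels of Cct3 and Cct7 carry this uncertainty. The other 6 subunits had no such match of at least 90% over 100 bases. For the partner genes named above, only closer and longer matches counted as near-copies, so weaker copies of these could be missed.

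Tcp1 and Cct8 overlapped another gene's exons at the 3' end, on the opposite strand. Acat3, which overlaps Tcp1, was at 0 in all libraries, and Usp16, which overlaps Cct8, was at 70.5 and 85.5 CPM and not called, well below Cct8. The strand setting of the counting is not known, so reads of such pairs could be mixed. Several partner genes named above also overlap a gene on the opposite strand, Tbcb and Cdc20 among them. For these partner genes the place of the overlap was not examined, so mixing of their reads is possible but not known. For 5 subunits there was another gene starting within 1000 bp on the opposite strand. Among these neighbours, Mrpl18, Psph and Pradc1 had exons that overlapped those of Tcp1, Cct6a and Cct7, away from the subunit's 3' end. Of these neighbours, Mrpl18, a mitochondrial ribosomal protein gene beside Tcp1, was higher in aged cells, from 110 to 167 CPM (log2 fold change 0.60). Psph beside Cct6a (17.9 and 23.9 CPM), Pradc1 beside Cct7 (5.31 and 8.88 CPM) and Fam173b beside Cct5 (13.0 and 13.2 CPM) were not called, and Tsacc beside Cct3 was too low to be tested.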

How the data were processed

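Libraries were made from total RNA with the QuantSeq kit, which reads transcript 3' ends, per the labels' protocols. The build was GRCm38 (mm10), per the submitters' processing notes. For the aligner, the counting program and the strand setting, the entry is not given in the sources used here. CPM values were deposited by the authors, 1 column per library, for 25655 identifiers, of which 1 was blank in all and left out. Symbols were matched for 25599 and not for 55. All values were whole multiples of 1 read (within 0.001 reads), so reads were recovered. A count of 0 allows up to 3 reads, 1.08 to 1.54 CPM, which covers counting error only. The value column of Aged replicate 2 is headed as replicate 3 and was taken by its sample record.

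The main test was limma 3.58.1 (R 4.3.3) with an intensity trend on log2(CPM + 1), two-sided, for genes averaging 1 CPM or more, with Benjamini-Hochberg adjustment over all 10511. The pseudocount of 1 understates the change of low genes. The fit was checked on simulated data. Alternatives were TMM, RLE and upper-quartile scaling, pseudocounts of 0.1 and 5, no filter and 5 CPM, edgeR 4.0.16, DESeq2 1.42.0 and limma-voom on recovered reads, a replicate block, and leaving out each library. Named genes were the 8 subunits, the members of each companion list with the smallest p (up to 4 for lists of direct partners and clients), Cct6b, Hspd1, Hspe1, Mki67, and the 5 profiles most like the subunits with the 1 most opposite; others are said to be picked after their values were seen. A gene that this rule takes in is not reported here. The members and lists were chosen with earlier results of these data known.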

Additional observations from a re-analysis of the deposited data

How the results depend on the processing

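Over the 17 alternatives Cct3, Cct6a, Cct7, Cct8 and Tcp1 were called higher in all 17, Cct4 in 16 and Cct2 and Cct5 in 0. The exception for Cct4 was DESeq2 (0.26, adjusted p = 0.0747). The summed CCT difference was 518, 525 and 534 CPM with TMM, RLE and upper-quartile scaling, against 611 CPM. Over all genes, DESeq2 called 952 higher and 1017 lower, against 1701 and 1313. Lower calls also outnumbered higher ones with TMM (1432 higher, 1548 lower), RLE (1451, 1531) and upper-quartile scaling (1465, 1495), edgeR (1443, 1557) and limma-voom (1435, 1520). For higher calls, leaving out 1 library gave 1323 to 1553. With a pseudocount of 5, or a minimum of 5 CPM, 2 R2TP genes were called higher instead of 1. The chaperonin-like call, Bbs12, was 0 with DESeq2, 0 with the minimum of 5 CPM, and 0 to 1 when 1 library was left out. Bbs12 was lost without Young replicate 2 or 3 or Aged replicate 1 or 3 (adjusted p = 0.0834, 0.0903, 0.086 and 0.057). The count of heat shock and MYC factors was 0 with DESeq2 and 0 to 1 when 1 library was left out. Myc was lost without Young replicate 1 or 2 or Aged replicate 2 or 3 (adjusted p = 0.0941, 0.068, 0.0618 and 0.0699). Of the HSP70 and HSP90 genes, 7 to 9 were called higher over all alternatives. Lower calls among actins and tubulins were 1 to 2 when 1 library was left out. The cause of these changes was not tested.

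No pairing by replicate number was seen: the correlations of deviations between same-numbered libraries were 0.021, 0.0002 and 0.0028. Those between differently numbered libraries ran from -0.026 to 0.024. Counting error lowers such correlations, so the check cannot settle whether libraries were handled in pairs. With the replicate number as a block, 6 subunits were called higher and 0 lower, with a median of 0.35, and 1725 genes were called higher and 1336 lower.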

Other observations

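Ranked by log2 fold change, the subunits ran Cct6a (0.63), Cct3 (0.62), Cct7 (0.42), Cct8 (0.37), Tcp1 (0.34), Cct4 (0.31), Cct5 (0.13) and Cct2 (0.08). As background, Cct3, Cct6a, Cct8 and Cct7 are neighbours in the assembled ring, on the side that binds ATP weakly, and Tcp1, Cct4, Cct2 and Cct5 are on the side that binds it tightly. That the 4 highest ranks fall on 1 side was noticed after the values were seen and was not tested. No gap separates the sides: Cct8 and Tcp1 differed by less than their standard errors of 0.06.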
